A study of Oncorhynchus tshawytscha with 15 samples.

Results

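The 41 contigs described here are those of the gill transcriptome of juvenile Chinook salmon (Oncorhynchus tshawytscha) whose read levels first passed a fixed margin at 21°, out of 183740 contigs in the deposited table. They were selected by their read levels in CPM (reads on a contig per 1000000 reads counted in that library). A contig was kept when its mean at 21° was at least 1 CPM and its mean at 18° was under 1.5 times the mean of the libraries at 12° and 15°. In addition, its lowest library at 21° and its lowest at 25° each had to lie above 2 times the highest of the 9 libraries at 12°, 15°, and 18°. At most 200 were to be taken, but only 41 met the rule, so all were kept. Levels at 18°, 21°, and 25° relative to the cooler libraries therefore chose these contigs, and they are given as a description with no test.

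Fall-run fish of the Merced River Hatchery, 5 months posthatch and reared at 12°, were moved to water at 15°, 18°, 21°, or 25° for 3 hr and then returned to 12° for 1 hr before the gill arch was taken. The 12° group was the control, with equal handling and no warming. RNA of 11 fish was pooled per library, with 3 pools per temperature and 15 libraries in all, so that no value for single fish can be given. The tests judge a difference between temperatures against the spread between pools. The 3 pools of a temperature were exposed on different, successive days, so this spread includes differences between days, and the labels do not tie replicate numbers to days. In the 25° bath a number of fish stopped responding or died, and these were dissected promptly, so the 25° pools mix fish with complete and shortened treatment. Libraries held 58654252 to 90869450 reads, at which 3 reads stand for 0.0330 to 0.0511 CPM (counting error only).

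The gill carries out gas exchange, ion regulation, and nitrogen excretion, and is in direct contact with the water. In fish as in other animals, warm exposure activates heat shock factors, which raise transcription of molecular chaperones, the proteins that hold and refold damaged proteins. Genes of protein degradation, stress signaling, and cell death can follow at more severe exposures. In the table used here each contig has a number but neither a gene name nor a sequence, so that none of the 41 is assigned to a gene or function, and neither the gill identity of the samples nor any marker of another cell type could be examined. The numbers come in 2 name sets, of 132830 and 50910 contigs, and 1859 numbers occur in both. Of the 41 contigs, 25 belong to the larger set and 16 to the smaller. The suffix _b marks a contig of the smaller set whose number is also used in the larger, which applies to contig_59085_b.

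Summed over each library, the 41 contigs held few reads up to 18° and many at 25°. Their summed level was 163.7 ± 3.58 CPM at 12°, 151.9 ± 7.48 at 15°, 201.7 ± 6.33 at 18°, 637.1 ± 30.0 at 21°, and 19906 ± 4707 at 25° (SD, n = 3 pools each). The sum at 21° was thus 3.16 times that at 18°, and the sum at 25° was 31.2 times that at 21°. At 25° the 41 contigs took 1.99% ± 0.47 (SD, n = 3) of all reads counted. Much of the step to 25° came from a pair of contigs, contig_12135 and contig_74187, which made up 74.0% of the sum at 25°, against 9.82% at 21°. Without that pair, the sum was 5081 ± 684.1 CPM at 25° and 574.1 ± 18.0 CPM at 21° (SD, n = 3 each), and the ratio of 25° to 21° was 8.85. In these whole-gill pools, more RNA per cell and more cells of a type cannot be told apart.

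**Figure D1:**
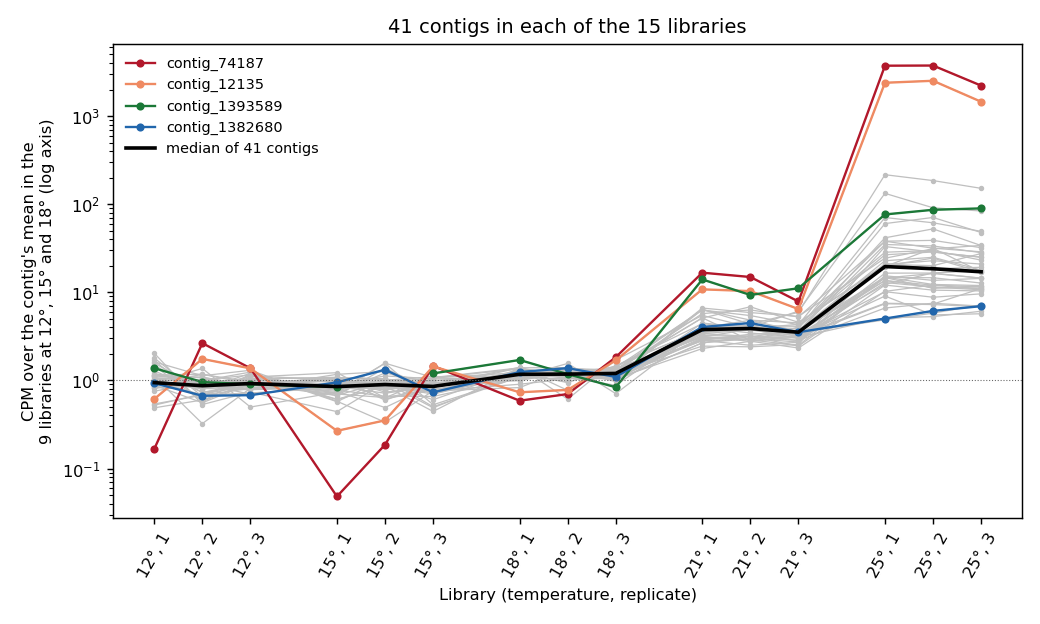
CPM of each of the 41 contigs in each of the 15 libraries, divided by the contig's own mean in the 9 libraries at 12°, 15°, and 18° (log axis, 1 grey or coloured line per contig, black line the median; a library with no read is left out of its line). All lines rise at 21° and again at 25°, where contig_74187 and contig_12135 stand above all others, and the same pair varies most among the cooler libraries.

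In the single contigs, the mean at 21° was 2.47 to 13.1 times the mean of the 9 cooler libraries, with a median of 3.73 times. The margin, the lowest library at 21° over the highest of the 9, was below 2.5 in 25 of the 41 and above 3 in 7. Most of the group therefore lies near the margin of 2. The median of the means in RPKM, which corrects for contig length, was 1.95 at 12°, 2.22 at 15°, 2.76 at 18°, 8.58 at 21°, and 47.5 at 25°. Over all 155951 contigs with enough reads to be tested, the same medians were 1.49, 1.51, 1.42, 1.42, and 1.17 RPKM in the same order of temperature. At 12° the 41 contigs spanned 0.236 to 239.8 RPKM, so the group includes both scarce and abundant transcripts.

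At the edges of the rule, contig_1431250 was nearest inside the margin at 21° with 2.03 times and contig_1454648 nearest outside with 1.998 times. The first had 3.24, 3.81, and 3.77 CPM at 21° in replicates 1 to 3, and the second 6.11, 7.34, and 7.66. For the level at 18°, contig_71528 lay just inside at 1.495 times the mean of 12° and 15°, and contig_22911 just outside at 1.51 times. For the minimum of 1 CPM at 21°, contig_272174 lay inside with 1.08 CPM, and contig_1085877, with 0.871 CPM, was 1 of 3 contigs that failed this criterion alone. The criterion at 25° removed no contig. The lowest value was that of contig_1382680, whose lowest library at 25° was 3.65 times the highest of the 9.

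The level at 18° bears on whether these contigs rise first at 21°. All 41 had a higher mean at 18° than at 12° and 15° combined, by 1.06 to 1.495 times with a median of 1.299. Among all tested contigs, 41.5% had a higher mean at 18°. In 14 of the 41, all 3 pools at 18° lay above all 6 pools at 12° and 15°, which held for 3.31% of all tested contigs. The rule placed an upper limit on this same level and asked for nothing below it, so no test is attached to these shares. For example, contig_1427528 had 7.39, 7.42, and 5.55 CPM at 18°, against 4.20 to 5.53 CPM at 12° and 3.81 to 4.52 CPM at 15°. In contrast, contig_1439042 had 1.07, 0.957, and 0.781 CPM at 18°, within the 0.530 to 1.04 CPM of the 12° and 15° libraries apart from 1 pool just above them. Both examples were chosen after their values were seen. The name "rising first at 21°" thus rests on the limit of 1.5 times and does not describe a group that was flat up to 18°.

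**Figure D2:**
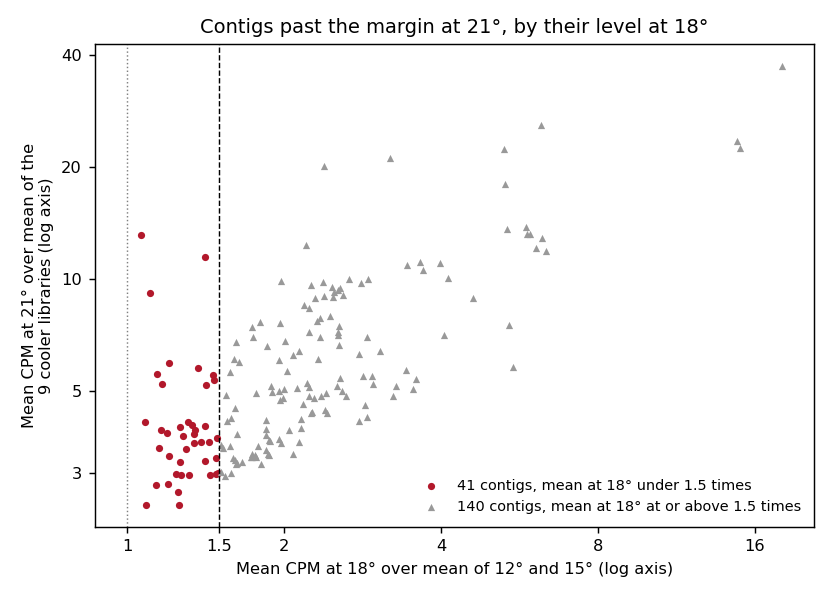
Mean CPM at 18° over the mean of the 12° and 15° libraries (horizontal, log axis) and mean CPM at 21° over the mean of the 9 cooler libraries (vertical, log axis), for the 41 contigs (red circles) and the 140 contigs that passed both margins but not the limit at 18° (grey triangles). The dashed line is the limit of 1.5 times and the dotted line marks 1; the 41 contigs lie between 1.06 and 1.495, and no gap separates them from the other 140.

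A total of 181 contigs passed the minimum and the margins at 21° and 25°, of which these 41 were under the limit at 18° and the other 140 were at or above it. The 41 contigs had a median ratio of 21° to the cooler libraries of 3.73, a median ratio of 25° to 21° of 5.02, and a median length of 564 bp. For the other 140 these medians were 5.47, 5.19, and 545 bp. These values are given side by side with no test of the difference, since the 2 groups were cut from 1 continuous range. A further 2078 contigs were under the limit at 18° and past the margin at 25° but not at 21°.

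The contig with the largest ratio of 21° to the cooler libraries was contig_74187 (259 bp), at 13.1 times. It had 0.267, 4.23, and 2.20 CPM at 12°, 0.0770, 0.298, and 2.34 at 15°, and 0.941, 1.12, and 2.93 at 18° in replicates 1 to 3. At 21° it had 26.7, 23.8, and 12.6 CPM, and at 25° 5962, 5987, and 3544. The pools at 12°, 15°, and 18° overlapped and varied widely, replicate 3 was the lowest pool at both 21° and 25°, and no pool at 25° overlapped any other temperature. Of its reads, 90.0% aligned to no other contig.

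The next largest was contig_1393589 (1116 bp), at 11.5 times. It was at most 0.557 CPM in every cooler library, 3.05 to 4.57 CPM at 21°, and 25.0 to 29.3 CPM at 25°. In replicate 2 at 15° it had 0 reads, which allows up to 0.0496 CPM. Its lowest pool at 21° was 5.47 times its highest cooler pool, the widest margin of the 41 contigs. The third was contig_12135 (494 bp) at 9.19 times. At 12° it had 2.81, 8.002, and 6.24 CPM, at 15° 1.22, 1.61, and 6.58 CPM, and at 18° 3.34, 3.56, and 7.71 CPM. At 21° it had 49.3, 47.1, and 29.4 CPM, and at 25° 10886, 11467, and 6631 CPM. As in contig_74187, replicate 3 was the lowest pool at 21° and at 25°, and the cooler pools stayed well below 21°.

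The pair contig_12135 and contig_74187 moved together at 21° and 25°. Divided pool by pool, the CPM of contig_12135 was 1.83 to 1.92 times that of contig_74187 in the 3 pools at 25° and 1.85 to 2.34 times in those at 21°. In the 9 cooler libraries it was 1.89 to 15.9 times, so the pair kept no fixed ratio there. The largest value rested on 7 reads of contig_74187, but the ratio also varied at higher counts. Reads of contig_12135 and contig_74187 were 231 and 22 in replicate 1 at 12°, and 690 and 365 in replicate 2. In replicate 1 at 18° they were 270 and 76. What made the ratio vary was not tested. Corrected for length, the levels of the pair were close at 25° and 21°. At 25° they were 19557 ± 5345 RPKM for contig_12135 and 19941 ± 5419 RPKM for contig_74187. At 21° they were 84.9 ± 22.0 and 81.2 ± 28.8 RPKM in the same order (SD, n = 3 each). In the cooler groups the mean of contig_12135 was the higher, with wide spread. In the same order the means were 11.5 ± 5.35 and 8.62 ± 7.66 RPKM at 12°, and 6.35 ± 6.05 and 3.49 ± 4.81 at 15°. At 18° they were 9.86 ± 4.98 and 6.42 ± 4.25 RPKM (SD, n = 3 each). In both contigs, the libraries with the highest level in each cooler group were replicate 2 at 12°, replicate 3 at 15°, and replicate 3 at 18°. Whether they are pieces of 1 transcript or separate genes was not tested.

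The other contigs named for a large rise at 21° were scarce or moderate. The fourth, contig_59085_b (1952 bp), had 2.18 to 6.42 CPM in the cooler libraries, 25.2, 22.3, and 20.2 CPM at 21°, and 92.5, 118.3, and 129.1 CPM at 25°. Next came contig_42885 (484 bp), with 20.8 to 27.4 CPM at 25°, against 3.80 to 4.56 at 21°. The sixth was contig_73983 (206 bp), with 37.3 to 53.2 CPM at 25°, against 1.08 to 1.57 at 21°. Their ratios of 21° to the cooler libraries were 5.95, 5.76, and 5.55.

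The most abundant contig at 21° was contig_1143008, which is also the second shortest of the group at 170 bp. It had 37.2, 44.2, and 40.9 CPM at 12°, 34.2, 40.03, and 43.9 at 15°, and 45.2, 54.7, and 54.2 at 18°. At 21° it had 152.6, 176.4, and 170.0 CPM, and at 25° 2639, 3099, and 2090, with no overlap between 21°, 25°, and the cooler pools. Per length this was 239.8 ± 20.5 RPKM at 12°, 978.4 ± 72.3 at 21°, and 15348 ± 2970 at 25° (SD, n = 3 each). It was thus already abundant in unheated gill, and at 21° it was the highest of the 41 on the RPKM scale.

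Below it stood contig_58656 (545 bp), at 39.9 ± 3.10 RPKM at 12°, 160.2 ± 9.42 at 21°, and 968.6 ± 161.4 at 25° (SD, n = 3 each). Close to it at 25° was contig_1561025 (603 bp), with 31.1 ± 3.17 RPKM at 12°, 78.6 ± 2.51 at 21°, and 917.8 ± 129.0 at 25° (SD, n = 3 each). Its share of uniquely aligned reads, 81.0%, was the lowest of the group, and its other reads aligned to more than 1 contig. The longest contig of the group, contig_1374101 (3886 bp), had 157.2 to 179.9 CPM at 25°, against 30.9 to 34.5 at 21°. In contig_38216 (1698 bp) the pools held 149.7 to 168.6 CPM at 25°, against 27.3 to 33.5 at 21°. At 21° contig_1374101 was 2.96 times and contig_38216 2.81 times its mean in the 9 cooler libraries.

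How much further the contigs rose at 25° was not set by the rule, which asked only for the same margin at both temperatures. It did select on the libraries at both, so the comparison of 25° with 21° is given as a description, and nothing is read from its counts. In all 41 contigs, every pool at 25° lay above every pool at 21°, whereas 12.4% of all tested contigs did so and 35.2% had every pool at 21° above every pool at 25°. The shares over all tested contigs were counted in CPM, which scales by library totals, and were not recounted with another scaling. By edgeR's quasi-likelihood test over all 155951 tested contigs (TMM scaling, Benjamini-Hochberg adjusted p below 0.01 and a fold change above 2), 40 of the 41 met the call higher at 25° and 0 lower. The same calls were made for 6.36% of all tested contigs in the upward and 3.38% in the downward direction, or 9924 and 5276 contigs. With library totals in place of TMM that balance turned round, at 6505 contigs higher and 12440 lower, and 38 of the 41 were called higher and 0 lower. The median log2 fold change was 2.65 in the 41 contigs and -0.03 over all tested contigs. With library totals these medians were 2.33 and -0.35, since that scaling shifts all contigs at 25° downward. Computed over all 15 libraries, the TMM factors were 0.794 to 0.845 at 25° and 1.006 to 1.093 in the other 12. The test used factors computed anew from its own 6 libraries, which are not given here.

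**Figure D3:**
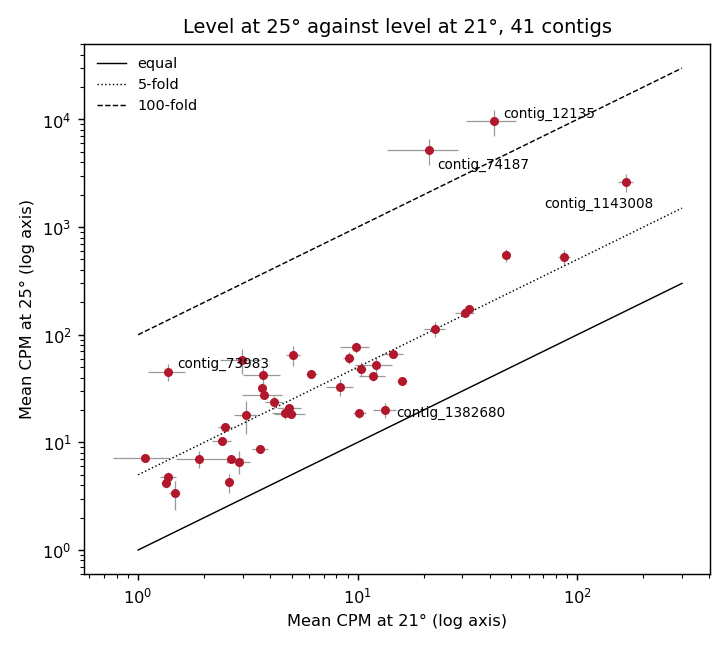
Mean CPM at 25° (vertical, log axis) against mean CPM at 21° (horizontal, log axis) for the 41 contigs, with SD bars over 3 pools. All points lie above the line of equal level, most lie near the 5-fold line, and contig_12135 and contig_74187 lie beyond the 100-fold line.

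In CPM, the ratio of 25° to 21° had a median of 5.02. It was above 2 in 38 of the 41 contigs, above 4 in 27, above 8 in 9, above 16 in 4, and above 100 in 2. At 21°, a contig had reached a median of 19.9% of its own level at 25°, with a range from 0.407% to 66.4%. On the log2 scale, the step from 18° to 21° had a median of 1.67 and the step from 21° to 25° a median of 2.33, and the later step was the larger in 29 of 41. These steps cover 3 and 4 degrees, and the earlier one was used by the rule.

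The contigs that climbed most from 21° to 25° were contig_74187 (log2 fold change 8.26, standard error 0.39) and contig_12135 (8.17, standard error 0.34). Their levels rose 245.5 and 230.4 times in CPM. Next were contig_73983 (5.38, standard error 0.20) and contig_62910 (4.63, standard error 0.22). The last, contig_62910, 2004 bp long, had 0.281 to 0.976 CPM in the cooler libraries, 2.28 to 3.499 at 21°, and 47.9 to 75.9 at 25°. These 4 differed in length and in starting level, and all but contig_62910 were under 500 bp.

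At the other end were contigs that at 21° already held a large share of their level at 25°. The smallest further rise was that of contig_1382680 (1294 bp), with 16.8, 20.5, and 23.2 CPM at 25°, against 13.4, 14.9, and 11.7 CPM at 21°. Its log2 fold change was 0.92 (standard error 0.16), and it was the 1 contig not past the 2-fold threshold. Without replicate 1 at 25° or replicate 2 at 21° it passed, at a log2 fold change of 1.04 in each case. In contig_1434833 (484 bp) the pools held 3.47, 4.13, and 5.14 CPM at 25°, against 2.65, 2.67, and 2.48 at 21° (log2 fold change 1.03, standard error 0.20). In contig_71528 (564 bp) they held 17.4, 18.0, and 20.7 CPM at 25°, against 10.7, 9.40, and 10.5 at 21° (1.20, standard error 0.13). The fourth was contig_1429137 (356 bp), with 2.74 to 4.49 CPM at 25°, against 1.396 to 1.56 at 21° (1.51, standard error 0.23). The first 3 of these reached 66.4%, 61.2%, and 54.6% of their level at 25° by 21°. The call of contig_1434833 was lost, at log2 fold changes of 0.89 to 1.09, when any 1 of 5 libraries was left out, namely replicates 2 and 3 at 25° and replicates 1, 2, and 3 at 21°.

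**Figure D4:**
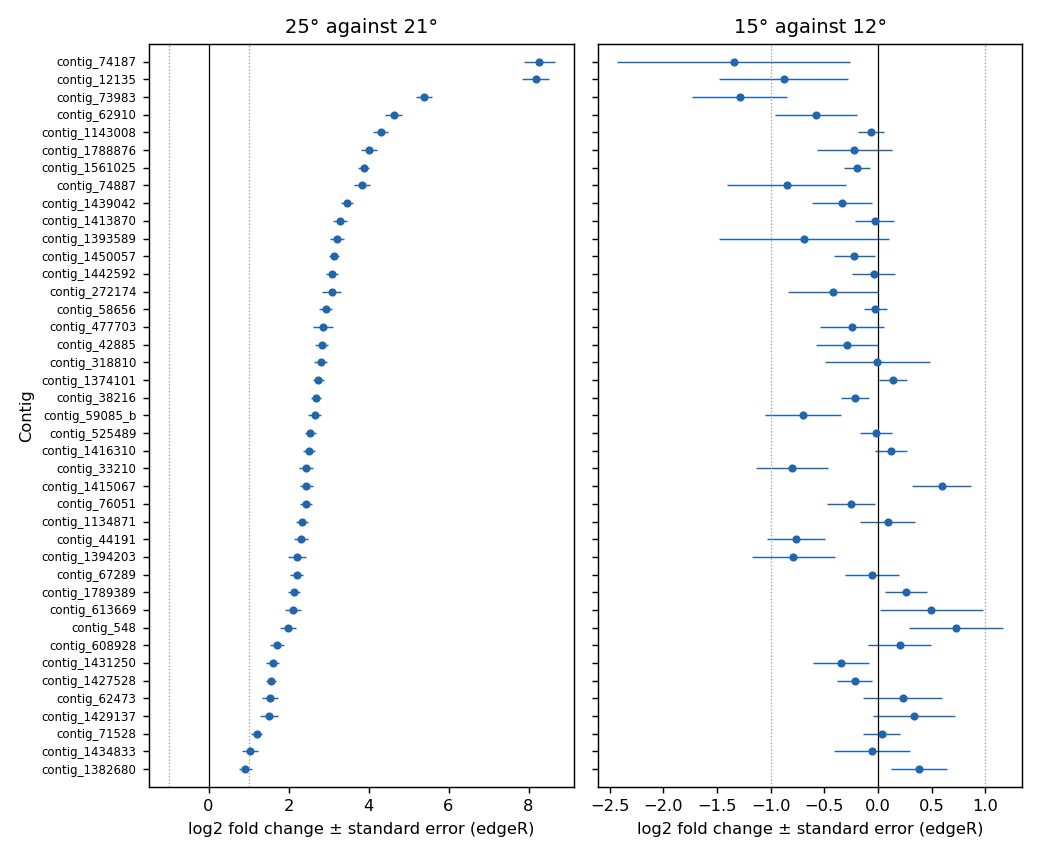
Log2 fold change with standard error from the edgeR fits for each of the 41 contigs, at 25° against 21° (left) and at 15° against 12° (right), in the order of the left panel; dotted lines mark a 2-fold change. On the left all 41 values lie above 0 and 40 lie beyond the 2-fold line, whereas on the right most values lie within the lines. The widest standard errors on the right are those of contig_74187 (1.08), contig_1393589 (0.79), and contig_12135 (0.60). The last of these had 97 to 690 reads in the libraries compared, so wide errors are not limited to contigs with few reads.

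The rule treats the libraries at 15° and 12° alike, so it fixed no direction between them. It did limit the size of a difference, since a high library at either temperature raises the highest of the 9, and the small number of calls is therefore not independent of the rule. No contig of the 41 passed the test between 15° and 12°. By the same edgeR test 0 of the 41 were called higher and 0 lower (adjusted p = 1.0 rounded in each), and 0% of all tested contigs were called in either direction. DESeq2 also called 0 of the 41, and over all tested contigs it called 0 higher and 2 lower. At an unadjusted p below 0.05, by edgeR, 0 of the 41 were higher and 3 were lower at 15°, against 1.23% and 1.22% of all tested contigs. The lower ones were contig_73983 (log2 fold change -1.29, standard error 0.44), contig_44191 (-0.76, standard error 0.27), and contig_33210 (-0.80, standard error 0.34). Without replicate 1 at 12°, 0 contigs were below that p in this direction, and without replicate 1 at 15°, 1 was. The mean at 15° was below that at 12° in 28 of the 41, compared with 48.2% of all tested contigs, and the median log2 fold change was -0.20 in the 41 and -0.01 over all tested contigs. That median was -0.09 without replicate 1 at 12°.

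Pools at 15° and 12° overlapped in nearly all of the 41 contigs. All 3 pools at 15° lay above those at 12° in 1 contig, contig_1415067, with 0.803, 0.745, and 0.818 CPM at 15°, against 0.389, 0.522, and 0.642 CPM at 12°. All 3 lay below in 2 contigs. These were contig_73983, with 0.143, 0.0827, and 0.188 CPM at 15°, against 0.401, 0.278, and 0.321 at 12°, and contig_1394203, with 0.209, 0.298, and 0.153 CPM at 15°, against 0.389, 0.348, and 0.398 at 12°. Over all tested contigs, pools at 15° lay wholly above those at 12° in 5.05% and wholly below in 3.66%. Of these, contig_1415067 and contig_1394203 were named after their values were seen.

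The control pools differed among themselves in a way that several of the 41 contigs shared. In contig_59085_b the 12° pools held 6.42, 2.18, and 4.50 CPM in replicates 1 to 3. In contig_33210 (2354 bp) they held 4.14, 1.52, and 2.61 CPM, and in contig_44191 (1369 bp) 3.34, 1.66, and 2.56 CPM. All 3 contigs were thus highest in replicate 1 and lowest in replicate 2, the reverse of the order of these replicates in contig_12135 and contig_74187. Across all 15 libraries the CPM of contig_59085_b stayed between 1.29 and 2.56 times that of contig_33210. Its ratio to contig_44191 rose with temperature and did not overlap between these groups. That ratio was 1.31 to 2.39 in the 9 cooler libraries, 2.65 to 2.85 at 21°, and 3.36 to 3.55 at 25°. These contigs were set side by side after their values were seen, as was the pair of contig_12135 and contig_74187.

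**Figure D5:**
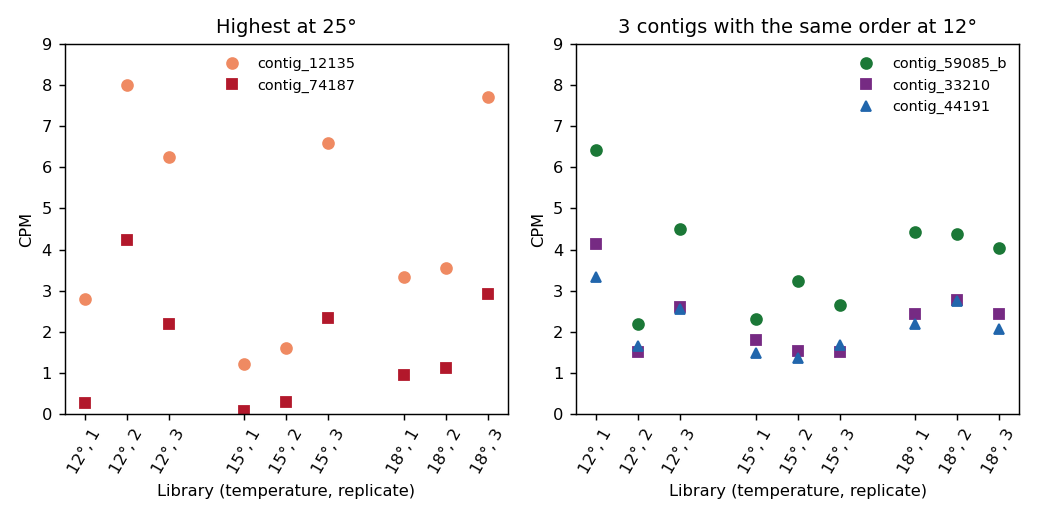
CPM in the 9 libraries at 12°, 15°, and 18° of the pair of contigs highest at 25° (left) and of 3 contigs that share an order of the 12° pools (right). On the left, replicate 2 at 12° and replicate 3 at 15° and at 18° are the highest of their groups; on the right, replicate 1 at 12° is the highest library for each contig and replicate 2 is the lowest at 12°.

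Counted over the 41 contigs, replicate 1 was the highest of the 12° pools in 21, compared with 32.0% of all tested contigs. At 21° replicate 3 was the lowest pool in 24 of the 41, compared with 31.1% of all tested contigs, and at 25° replicate 3 was the lowest in 25 of the 41, compared with 29.0%. These counts describe the libraries, as contigs of 1 transcript are not separate observations, and the part of the exposure day in them was not tested. The reduction in replicate 3 at 25° was large in the pair of most abundant contigs, and the sum over all 41 was 22095 and 23121 CPM in replicates 1 and 2 and 14503 in replicate 3. The median contig differed little, at 33.7, 35.2, and 34.2 CPM.

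Within a temperature the spread between pools was modest. The coefficient of variation, the SD as a share of the mean, had a median over the 41 contigs of 17.2% at 12°, 19.9% at 15°, 9.72% at 18°, 10.9% at 21°, and 13.0% at 25°. Over all tested contigs the medians were 21.4%, 20.6%, 15.8%, 22.0%, and 24.1% in the same order of temperature. A contig with a low pool at 21° or a high pool among the 9 cooler libraries can fail the margin. A low spread at 21° and below is therefore partly a product of the rule. The criterion at 25° removed no contig, so it did not lower the spread there. Level differed as well at 25°, with a median of 47.5 RPKM in the 41 contigs and 1.17 RPKM over all tested contigs. What part this difference in level had in the spread was not tested.

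The contigs were 149 to 3886 bp long, with a median of 564 bp, compared with 684 bp over all tested contigs. Of the 41, 13 were at least 1000 bp. The shortest, contig_1134871 (149 bp), had 17.2 to 21.5 CPM at 25°, against 4.19 to 5.31 at 21°. The second longest, contig_477703 (2413 bp), had 13.5 to 25.0 CPM at 25°, against 2.76 to 3.49 at 21°. Their levels at 25° were 4.04 and 5.79 times those at 21°, at opposite ends of the range of length. Few reads were shared with other contigs, as 23 of the 41 had only unique reads and 4 had under 99%. Besides contig_1561025 and contig_74187, these 4 included contig_525489 at 98.0% and contig_42885 at 98.3%. When the rule was applied to unique reads alone, 41 contigs met it, and 41 of these were the same contigs.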

How the data were processed

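Gill RNA was measured by RNAseq in 15 pooled libraries. The authors trimmed the reads, assembled contigs de novo, and mapped each library to the contigs with CLC Genome Workbench. Deposited counts are whole numbers of total and of unique reads per contig, not normalized. RPKM was deposited too, computed by the authors; total reads, contig length, and column sums gave it back to within a relative gap of 9.98e-05 above 5 RPKM. Of the 98 columns, 51 were not used: the authors' own test results, group means, and repeated columns.

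CPM was total reads over the column sum, times 1000000. Tests covered the 155951 contigs that reached 10 reads in 3 or more libraries, among them all 41 described, with edgeR 4.0.16 in R 4.3.3 (TMM, glmQLFit, glmQLFTest, 6 libraries per fit), and with DESeq2 1.42.0 as an alternative. Library depth was 58654252 to 90869450 reads, so counting error is small except for contigs near 0. Standard errors are the log2 fold change over the square root of F. Only the edgeR fit was tested on simulated counts, with as many contigs raised as lowered. That simulation did not cover the shift in scaling seen at 25°. Other steps used Python 3.11.15. Groups and replicate numbers came from the labels. The 41 contigs and the comparisons were chosen with earlier results of these data known. Named contigs are the 6 with the largest ratio of 21° to the 9 cooler libraries, the 6 highest at 21°, the 4 with the highest and the 4 with the lowest ratio of 25° to 21°, the 2 longest and 2 shortest, the 3 with the fewest unique reads, any called at 15° (0 were), and those nearest each threshold; the few others were named after their values were seen. Alternatives were other scalings, filters, thresholds, and tests, unique reads, a replicate block, other limits in the rule, and each library left out.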

Additional observations from a re-analysis of the deposited data

How the results depend on the processing

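Calls at 25° against 21° were higher in 38 to 41 of the 41 contigs and lower in 0 under every alternative run. Over all contigs tested, 106688 to 182627 by setting, the same alternatives called 6505 to 28819 higher and 2968 to 27739 lower. The upper ends of both ranges came from an unadjusted p below 0.05 with no fold threshold. Among alternatives that kept the 2-fold threshold, the largest counts were 16037 higher and 12440 lower. The rule selected on the libraries at both temperatures, so nothing is read from these counts. With each library left out in turn, 39 to 41 were called higher. The pools of all 41 stayed apart in each case, but this was fixed in advance, since leaving out a library cannot make separated pools overlap. Of 252 repeats over 21 named contigs, 243 kept their direction and side of the threshold, 7 lost the call, 2 gained it, and 0 reversed. The changed calls were in 3 contigs, among them contig_71528 with library totals (log2 fold change 0.87) and contig_1434833 with the same scaling (0.71). The median log2 ratio of mean CPM at 25° to 21° was 2.33 with library totals, 2.64 with TMM-adjusted library sizes, and 2.25 to 2.40 with each library left out. At 15° against 12°, 0 contigs were called under every alternative that adjusted the p-values, and an unadjusted p below 0.05 gave 3 lower. That count, repeated after seeing the data, was 0 to 4 with each library left out and 5 with all 15 libraries in 1 fit, and the count of higher contigs, 0 as reported, was 0 to 1 and 2 in the same settings.

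The number of contigs meeting the rule depended on its limits. It was 14 with a limit at 18° of 25% above the mean of 12° and 15°, 181 without that limit, 7 with a margin of 3 times, and 20 with a minimum of 5 CPM at 21°, against 41. With each library left out it was 37 to 60, of which 34 to 41 were among the 41. Without replicate 1 at 12°, 34 of the 37 were among the 41, and without replicate 1 at 18°, 38 of the 60 were. With TMM-adjusted library sizes 38 contigs met the rule, of which 34 were among the 41.

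The replicate block gave 40 of the 41 contigs called higher and 0 lower at 25° against 21°, and 0 at 15° against 12°, and changed no call among the 41. Over all 155951 tested contigs it called 8544 higher and 4256 lower at 25° against 21°, compared with 9924 and 5276 without it. Same-numbered libraries deviated from their group means with correlations of -0.34, 0.48, and -0.29 between 25° and 21° and of -0.56, -0.22, and 0.53 between 15° and 12°, and the labels do not tie the numbers to the days of exposure, so the numbers were not treated as pairs. Differently numbered libraries had correlations of -0.54 to 0.61 between 25° and 21° and of -0.67 to 0.66 between 15° and 12°. The replicate block does not take in structure shared under different numbers.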
